A study of Mus musculus with 14 samples.

Results

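The Wnt system was followed here through 51 genes of the 23152 measured on the arrays: the Wnt ligands, their Frizzled receptors and Lrp co-receptors, the R-spondins, the secreted inhibitors of the Sfrp, Wif1 and Dickkopf kind, and a few intracellular genes that read the signal. The rule went by gene symbol and used no measured value, though the genes were chosen with earlier results of these data known. It took the genes whose symbol begins with Wnt, Fzd, Sfrp, Dkk or Rspo followed by a number (or, for Dkkl1, a letter), plus Sostdc1, Axin2, Lef1, Tcf7, Nkd1, Notum, Wif1, Lrp5 and Lrp6. By role they were 19 Wnt ligands, 10 Frizzled receptors, 2 Lrp co-receptors, 4 R-spondins, 5 Wnt-binding inhibitors, 6 inhibitors that bind Lrp co-receptors or are related to them, the deacylase Notum, 2 intracellular feedback inhibitors and 2 nuclear TCF/LEF factors. Of the 51, 48 had a mean level above the lowest 25% of all genes and were tested. Dkkl1, Fzd10 and Wnt8b, with mean levels of 4.10, 4.36 and 4.08 on the log2 scale, lay under that limit of 4.40.

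RNA came from 7 cultures of neural stem cells, each grown from the subventricular zone of 1 mouse at postnatal day 4. The labels call each culture a clone: clones 1 to 4 were Cic+/+ and clones 5 to 7 were Cic-/-. The Cic-/- cultures carried Cicflox/flox alleles, and the design text gives adenoviral Cre for all the cultures, Cic+/+ included, so no culture without that virus is among the groups. Each culture was kept for 24 h in proliferation medium with EGF and in the same medium without it, which gave 14 arrays: 4 Cic+/+ with EGF, 4 Cic+/+ without, 3 Cic-/- with and 3 Cic-/- without. CIC is a transcriptional repressor that is relieved by EGF receptor and ERK signalling, and the comparisons ask what its loss, the presence of EGF and their combination did to gene expression.

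Wnt proteins are secreted, lipid-bearing ligands that bind Frizzled receptors. With an Lrp5 or Lrp6 co-receptor they stop the destruction of beta-catenin, which then works with TCF/LEF factors on target genes such as Axin2 and Nkd1. Other ligands, of which Wnt5a is the best known, act mostly through receptors such as Ror2 and Ryk without beta-catenin. In the developing forebrain, Wnt signals bear on the proliferation and fate of neural progenitors.

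The deposited values are log2 signals from 1-colour arrays after RMA, and a gene's level below is the median of its probesets in an array. Where the levels of a group are listed, they follow the order of the clones, 1 to 4 for Cic+/+ and 5 to 7 for Cic-/-. A level cannot be set against that of another gene, because probes differ in brightness. A difference of 1 is a doubling of the signal. Cic itself checked the labels: its levels were 9.41 to 9.69 with EGF and 9.18 to 9.64 without it in Cic+/+ clones, and 7.40 to 7.67 and 7.04 to 7.48 in Cic-/- clones. The arrays correlated at 0.926 to 0.971 with each other. Clone 4 stood apart in sex: its Xist levels were 4.73 and 3.83, against 11.96 to 12.57 on all other arrays, and no Cic-/- clone was like it. Among neural stem cell markers, Sox2 lay between 11.14 and 11.98 and Nes between 8.05 and 10.60. These were bulk cultures, in which fewer cells of a type and less RNA per cell cannot be told apart.

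Loss of Cic went with higher Wnt5a and Sostdc1. Without EGF, both genes rose in Cic-/- cells, Wnt5a by 3.29-fold and Sostdc1 by 5.70-fold, and they were the 2 of 48 Wnt genes that passed the test. Of all 17364 genes tested, 0.553% passed in that comparison. With EGF none of the 48 passed, where 0.317% of all genes did. In both media, however, every Cic-/- array lay above every Cic+/+ array for these 2 genes, while 2.68% of all genes were separated in the same direction in both media. The media share their clones, so they are not independent observations of the genotype.

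Wnt5a is a secreted ligand known for signalling without beta-catenin. With EGF, its levels were 7.03, 6.92, 6.98 and 6.97 in Cic+/+ and 8.29, 8.13 and 7.67 in Cic-/- clones. Without EGF they were 6.60, 6.84, 6.74 and 7.13 in Cic+/+ and 9.41, 8.45 and 7.77 in Cic-/- clones. The Cic+/+ arrays lay close together, whereas the Cic-/- arrays were spread out, with clone 5 the highest and clone 7 the lowest in either medium. The mean was 6.83 ± 0.22 (SD, n = 4) against 8.55 ± 0.82 (SD, n = 3) without EGF, a difference of 1.72 ± 0.29 (standard error; limma, adjusted p = 0.011). With EGF it was 6.98 ± 0.05 (SD, n = 4) against 8.03 ± 0.32 (SD, n = 3). That difference of 1.05 ± 0.29, or 2.08-fold, had a limma adjusted p of 0.167. It passed only when clone 7 was left out (1.23, limma adjusted p = 0.0477) or when the brightest probeset stood for the gene (1.48, limma adjusted p = 0.00769).

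Sostdc1 encodes a secreted protein that binds Lrp co-receptors and bone morphogenetic proteins and dampens both kinds of signal. With EGF, its levels were 7.11, 7.81, 6.60 and 6.92 in Cic+/+ and 8.44, 9.18 and 8.76 in Cic-/- clones. Without EGF they were 5.51, 6.69, 6.64 and 6.02 in Cic+/+ and 9.05, 9.64 and 7.49 in Cic-/- clones. The lowest Cic-/- array, clone 7 without EGF, exceeded every Cic+/+ array in that medium but lay under clone 2 with EGF. Without EGF the means were 6.22 ± 0.56 (SD, n = 4) and 8.73 ± 1.11 (SD, n = 3), a difference of 2.51 ± 0.44 (limma, adjusted p = 0.0179). With EGF they were 7.11 ± 0.51 (SD, n = 4) and 8.79 ± 0.37 (SD, n = 3). This difference of 1.68 ± 0.44, or 3.21-fold, had a limma adjusted p of 0.153.

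**Figure D1:**
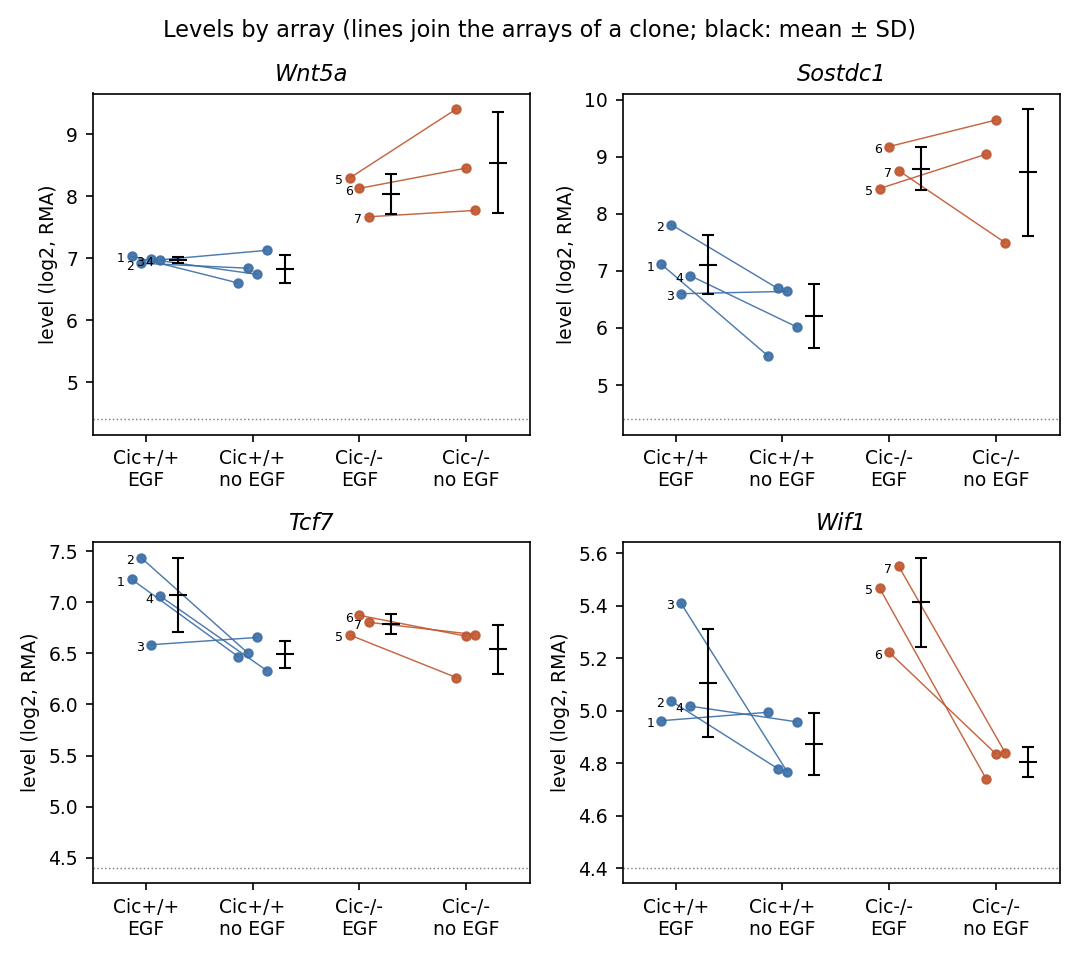
Level of 4 genes (y axis, log2 RMA signal) on each array by genotype and medium (x axis). Coloured points are single arrays, numbered by clone, lines join the 2 arrays of a clone, black marks give mean ± SD, and the dotted line is the limit of 4.40. For Wnt5a and Sostdc1 the Cic-/- points lie above all Cic+/+ points of the same medium, and for Wif1 all 3 Cic-/- lines slope down from EGF to no EGF.

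Both calls without EGF rested on particular clones and on the pooled estimate of spread. Wnt5a kept its call and Sostdc1 lost it without clone 4, the clone apart in sex. Leaving out clone 6 ended both (Wnt5a adjusted p = 0.0594, Sostdc1 adjusted p = 0.0932, limma). Wnt5a also lost its call without clone 2 (0.0605) or clone 3 (0.0649), and Sostdc1 without clone 1 (0.0588), clone 4 (0.0865) or clone 5 (0.0731). Without clone 7 the differences were larger, 2.11 for Wnt5a (limma adjusted p = 0.00116) and 3.13 for Sostdc1 (limma adjusted p = 0.00267). Fitting only the 7 arrays compared gave limma adjusted p of 0.131 and 0.125.

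The difference was seen along each gene's probes. Of 12 Wnt5a probesets, 12 were higher in Cic-/- cells in each medium, by 0.57 to 2.54 without EGF and 0.36 to 1.48 with it. Of 4 Sostdc1 probesets, 4 were higher in each medium, by 0.91 to 3.26 without EGF and 0.83 to 2.12 with it. Probesets of a gene read the same RNA and are no replicates of the genotype.

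**Figure D2:**
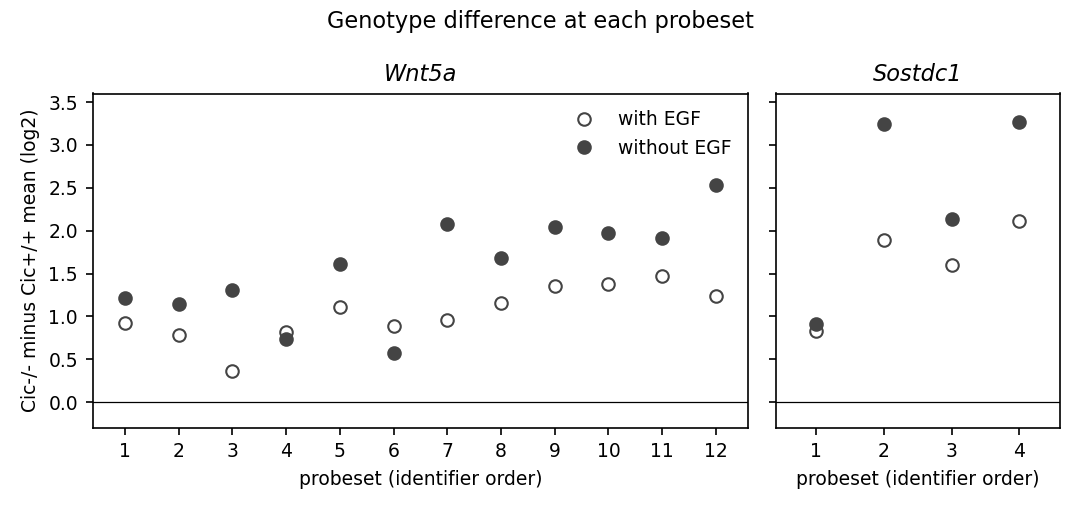
Cic-/- mean minus Cic+/+ mean (y axis, log2) at each probeset of Wnt5a and Sostdc1 (x axis, in the order of their identifiers), with EGF (open) and without (filled). All points lie above 0, from 0.36 to 2.54 for Wnt5a and from 0.83 to 3.26 for Sostdc1.

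Both genes are also known from other tissues near the ventricle, so markers of those tissues are given beside them. Of all genes tested, 0.317% passed between genotypes with EGF and 0.553% without, so a count of 0 does not set so short a list apart. Of 12 choroid plexus markers, 9 were above the limit and 0 passed between genotypes in either medium. With EGF, 8 were higher and 1 lower in Cic-/- cells (median 0.07), and without it 5 were higher and 4 lower (median 0.06). Their mean level was 4.88 to 5.10 in Cic+/+ and 4.96 to 5.19 in Cic-/- with EGF, and 4.98 to 5.32 and 5.11 to 5.31 without. The defining marker Ttr lay between 4.38 and 4.80 over all arrays, and Kcnj13, Clic6 and Cldn2 were under the limit. Of 10 genes listed for cortical hem and roof plate, 9 were above the limit and 0 passed. Among the 10, 3 (Wnt3a, Rspo1 and Rspo2) are also among the 51 genes. The list also holds Lhx2, a gene of the cortex beside the hem, so its mean is not that of hem markers alone. Without EGF that mean was 5.84 to 6.10 over the Cic+/+ arrays and 5.92 to 6.08 over the Cic-/- ones. Of 12 fibroblast and meningeal markers, 9 were above the limit and 0 passed. Their means were 5.37 to 5.68 and 5.41 to 5.64 without EGF, and Dcn, Lum and Aldh1a2 were under the limit.

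Oligodendrocyte genes did move with genotype. Of 9 oligodendrocyte lineage markers tested, 6 fell in Cic-/- cells without EGF, where 0.553% of all genes passed. The mean level of the list was 7.52 to 8.00 over Cic+/+ arrays and 5.94 to 6.16 over Cic-/- arrays. Without EGF the mean of 9 mitosis genes was 9.264 to 9.413 in Cic+/+ and 7.869 to 9.262 in Cic-/- cells. Clone 5 was the lowest, and all 9 genes were lower in Cic-/- cells (median -0.55). With EGF it was 9.36 to 10.14 and 8.00 to 9.10, with all 9 genes lower in Cic-/- cells (median -1.05), and 0 of the 9 passed in either medium. Oligodendrocyte progenitor markers had a mean of 9.63 to 10.12 in Cic+/+ and 8.85 to 9.24 in Cic-/- cells with EGF, where 1 of 8 fell, and 1 of 9 oligodendrocyte markers fell in that medium. Of 9 neuroblast markers 1 rose without EGF, Cd24a, by 1.33. In the comparison without EGF 0 of 3 endothelial, 0 of 5 microglial, 0 of 8 oligodendrocyte progenitor, 0 of 8 astrocyte and 0 of 9 neural stem cell markers passed. The astrocyte list was nonetheless lower in that medium, with a mean of 10.41 to 10.88 over Cic+/+ arrays and 10.04 to 10.27 over Cic-/- arrays. Of its 8 genes, 7 were lower and 1 higher in Cic-/- cells (median -0.39). Whether these shifts had a part in the Wnt5a and Sostdc1 results was not tested.

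Among the other ligands no gene passed either genotype comparison. With EGF, 17 of the 18 Wnt ligands tested had a higher mean in Cic-/- cells, as had 9149 of all 17364 genes. Their median difference was 0.30, beside 0.02 over all genes. Without EGF 9 of the 18 were higher, as were 8592 of all genes, and the ligand median was -0.02. The 18 ligands were read on the same 7 clones, so they are not independent observations of the genotype. Their mean levels over all arrays ran from 4.60 for Wnt8a to 8.26 for Wnt7b, and some, such as Wnt8a and Wnt3a (4.63), lay near the limit of 4.40. Wnt7b, a ligand of the forebrain known for beta-catenin signalling, had levels of 8.85, 7.43, 8.16 and 7.75 in Cic+/+ and 7.82, 8.59 and 8.92 in Cic-/- clones with EGF. Without EGF it had 8.86, 8.39, 8.25 and 7.39 in Cic+/+ and 7.86, 8.59 and 8.79 in Cic-/- clones. The genotypes overlapped in both media, and of the 7 clones clone 2 moved most between media. Its genotype differences were 0.39 ± 0.39 with EGF and 0.19 ± 0.39 without.

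Wnt7a, its close relative, is described because of its values. The levels without EGF were 6.36, 6.83, 6.89 and 6.76 in Cic+/+ and 7.91, 7.64 and 7.33 in Cic-/- clones. The groups did not overlap, yet the difference of 0.91 ± 0.27 had a limma adjusted p of 0.197. With EGF it had 6.43, 7.11, 7.65 and 7.03 in Cic+/+ and 7.78, 7.53 and 6.84 in Cic-/- clones, which overlap. Wnt16 and Wnt9b also did not overlap with EGF, with differences of 0.50 ± 0.15 (limma adjusted p = 0.202) and 0.44 ± 0.19 (limma adjusted p = 0.432), and were chosen after their values were seen.

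Over the 48 genes, 10 had an unadjusted limma p under 0.05 with EGF, where 10.6% of all genes had one. The groups did not overlap for 8 of the 48, where 11.7% of all genes were so separated. Without EGF, 4 had an unadjusted p under 0.05 beside 10.8% of all genes, and 5 did not overlap beside 9.38%. The median difference was 0.11 with EGF and 0.02 without, beside 0.02 and -0.00 over all genes.

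**Figure D3:**
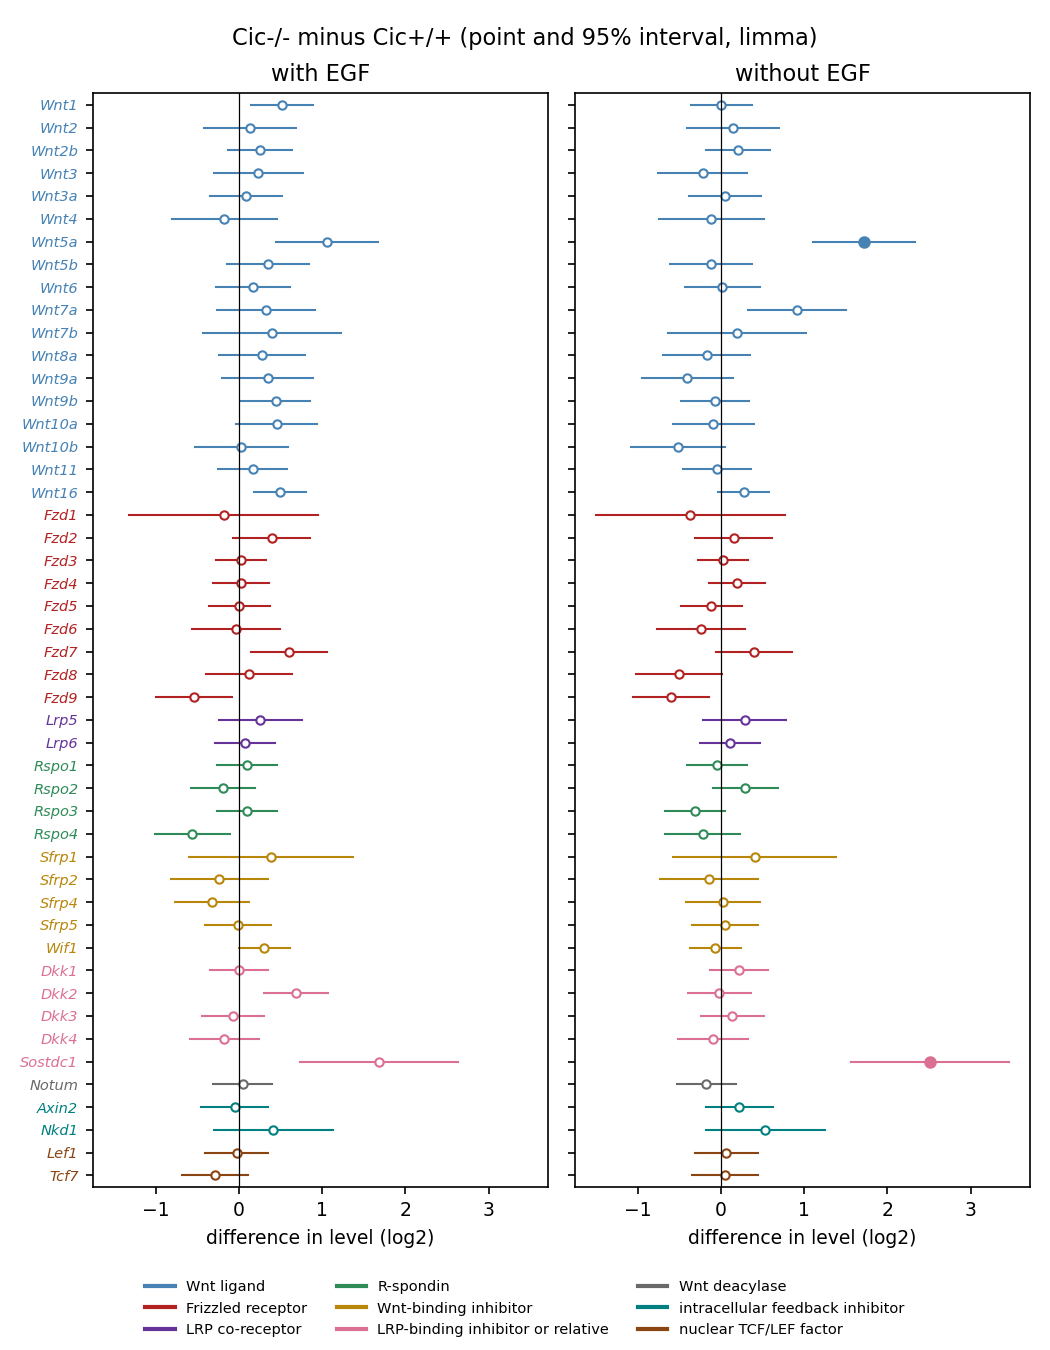
Cic-/- minus Cic+/+ difference in level (x axis, log2) for the 48 genes tested (y axis, coloured by role), with and without EGF. Points carry 95% intervals from limma, and a filled circle marks a gene that passed. Wnt5a and Sostdc1 without EGF, at 1.72 and 2.51, are the filled points.

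Frizzled receptors and Lrp co-receptors gave no call in any comparison. Fzd7, named for its values, was higher in Cic-/- cells by 0.60 ± 0.21 with EGF (limma adjusted p = 0.312), where the genotypes overlapped. Without EGF it was higher by 0.39 ± 0.21 (limma adjusted p = 0.546), with no overlap. Fzd9, a Frizzled known from neural precursors, had levels of 10.09, 10.30, 10.17 and 10.16 in Cic+/+ and 9.56, 9.72 and 9.64 in Cic-/- clones with EGF. In medium lacking EGF its levels were 9.82, 10.84, 10.70 and 10.63 in Cic+/+ and 9.99, 10.14 and 9.55 in Cic-/- clones. The genotypes were apart with EGF, and clone 1 brought them to overlap without it. The differences were -0.54 ± 0.21 (limma adjusted p = 0.375) and -0.60 ± 0.21 (limma adjusted p = 0.299), and without clone 1 the latter was -0.83 (limma adjusted p = 0.0455). Fzd3, a receptor of axon tracts and planar polarity, had 9.77, 9.80, 9.84 and 9.85 in Cic+/+ and 9.68, 10.19 and 9.65 in Cic-/- clones with EGF. Its values without EGF were 10.10, 9.97, 10.15 and 10.04 in Cic+/+ and 10.25, 10.02 and 10.01 in Cic-/- clones. Its genotype difference was 0.02 ± 0.14 in each medium, with 95% intervals of -0.28 to 0.33.

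Lrp5 and Lrp6 encode the co-receptors through which Wnt signals reach beta-catenin. With EGF, Lrp5 had 9.37, 9.08, 9.60 and 9.34 in Cic+/+ and 9.88, 9.81 and 9.12 in Cic-/- clones. Without EGF it had 9.33, 9.26, 9.72 and 9.57 in Cic+/+ and 9.92, 10.11 and 9.23 in Cic-/- clones. Clones 5 and 6 lay above and clone 7 below the Cic+/+ median, so the genotypes overlapped. Lrp6 had 9.60, 9.84, 9.72 and 9.72 in Cic+/+ and 9.86, 9.99 and 9.52 in Cic-/- clones with EGF. Its levels without EGF were 9.45, 9.73, 9.79 and 9.43 in Cic+/+ and 9.74, 9.98 and 9.39 in Cic-/- clones. Genotype differences without EGF were 0.28 ± 0.23 for Lrp5 and 0.11 ± 0.17 for Lrp6, with 95% intervals of -0.22 to 0.78 and -0.25 to 0.47.

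The R-spondins are secreted proteins that strengthen Wnt signals by keeping Frizzleds at the cell surface, and 0 of 4 passed in any comparison. Rspo1 had 6.00, 6.25, 5.75 and 6.19 in Cic+/+ and 6.26, 6.04 and 6.12 in Cic-/- clones with EGF. The levels without EGF were 6.41, 5.89, 6.00 and 5.78 in Cic+/+ and 5.85, 5.99 and 6.07 in Cic-/- clones, so the genotypes overlapped in both media. Rspo4 had 5.64, 5.20, 5.21 and 5.10 in Cic+/+ and 4.96, 4.82 and 4.40 in Cic-/- clones with EGF, with no overlap. The difference was -0.56 ± 0.21 (limma adjusted p = 0.345). In medium lacking EGF its levels were 5.32, 5.28, 5.19 and 5.40 in Cic+/+ and 4.67, 4.97 and 5.58 in Cic-/- clones, which overlap.

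The secreted Frizzled-related proteins bind Wnt ligands outside the cell. Sfrp1 had 6.49, 5.90, 5.88 and 6.54 in Cic+/+ and 7.72, 5.84 and 6.21 in Cic-/- clones with EGF. Without EGF it had 5.87, 6.41, 5.55 and 6.31 in Cic+/+ and 7.47, 5.49 and 6.36 in Cic-/- clones. Clone 5 alone was high, in both media, and clones 6 and 7 lay among or below the Cic+/+ clones. Sfrp2 had 6.44, 6.67, 6.45 and 5.79 in Cic+/+ and 5.90, 6.48 and 5.94 in Cic-/- clones with EGF. Its levels without EGF were 6.28, 6.46, 6.25 and 6.00 in Cic+/+ and 5.51, 6.76 and 6.04 in Cic-/- clones, again with overlap.

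The Dickkopf genes encode secreted proteins, some of which block Lrp co-receptors, and none of them passed a comparison. Dkk3, a divergent relative, had 6.05, 6.08, 6.19 and 6.23 in Cic+/+ and 5.69, 6.14 and 6.38 in Cic-/- clones with EGF. The levels without EGF were 6.11, 5.90, 6.25 and 5.73 in Cic+/+ and 6.11, 5.97 and 6.32 in Cic-/- clones, so the genotypes overlapped. Dkk2, named for its values, had 4.32, 4.41, 4.77 and 4.50 in Cic+/+ and 5.24, 5.13 and 5.20 in Cic-/- clones with EGF. In medium lacking EGF its levels were 4.56, 4.88, 4.72 and 4.49 in Cic+/+ and 4.51, 5.09 and 4.33 in Cic-/- clones. The groups were apart with EGF, by 0.69 ± 0.18 (limma adjusted p = 0.147), and overlapped without it. These levels lay near the limit of 4.40.

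Genes that read beta-catenin signalling did not separate the genotypes by test. Axin2, a target that feeds back to lower beta-catenin, had 7.46, 7.30, 7.12 and 7.29 in Cic+/+ and 7.24, 7.24 and 7.25 in Cic-/- clones with EGF. Without EGF it had 7.05, 7.25, 7.33 and 7.41 in Cic+/+ and 7.63, 7.87 and 6.94 in Cic-/- clones. Clones 5 and 6 were above all Cic+/+ clones and clone 7 below them all in the latter medium, and the difference was 0.22 ± 0.19 (limma adjusted p = 0.749; 95% interval -0.18 to 0.62). With EGF it was -0.05 ± 0.19 (95% interval -0.45 to 0.35).

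Nkd1, which restrains Dishevelled and is likewise a target, had 7.72, 6.98, 7.03 and 7.65 in Cic+/+ and 7.80, 7.73 and 7.74 in Cic-/- clones with EGF. The levels without EGF were 6.94, 7.43, 7.88 and 8.19 in Cic+/+ and 8.29, 8.79 and 7.35 in Cic-/- clones. With EGF the genotypes did not overlap, as for 11.7% of all genes, but only narrowly, at 7.72 in clone 1 and 7.73 in clone 6. As with Axin2, clones 5 and 6 were the highest without EGF, while clone 7 lay among the Cic+/+ clones. The differences were 0.41 ± 0.33 with EGF (limma adjusted p = 0.709) and 0.53 ± 0.33 without (limma adjusted p = 0.614).

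Notum removes the lipid from Wnt ligands and is a target of the pathway in many tissues. With EGF it had 5.49, 5.01, 5.26 and 5.31 in Cic+/+ and 5.23, 5.24 and 5.47 in Cic-/- clones. In medium lacking EGF its levels were 5.55, 5.33, 5.62 and 5.10 in Cic+/+ and 5.19, 5.03 and 5.45 in Cic-/- clones. Lef1, a nuclear partner of beta-catenin, had 4.94, 4.82, 5.01 and 5.08 in Cic+/+ and 5.04, 5.07 and 4.69 in Cic-/- clones with EGF. Its levels without EGF were 4.85, 4.82, 5.07 and 4.70 in Cic+/+ and 5.08, 4.48 and 5.20 in Cic-/- clones. Both genes overlapped between genotypes in both media, and neither passed a comparison.

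Few of these genes changed with EGF, and the calls came only when the pairing of arrays by clone was used. Without that block 0 of 48 genes passed for EGF in Cic+/+ cells, where 0.898% of all genes passed, and 0 of 48 in Cic-/- cells, where 0.19% did. At an unadjusted limma p under 0.05 there were 2 and 3 of them, beside 12.5% and 9.8% of all genes. With the clone as a random block, 1 of 48 passed in each genotype, beside 5.17% and 2.08% of all genes. These were Tcf7 in Cic+/+ cells and Wif1 in Cic-/- cells, both higher with EGF. All clones of a genotype moved the same way for 4 of the 48 in Cic+/+ and 19 in Cic-/- cells, beside 28.9% and 36.8% of all genes.

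Tcf7 encodes a TCF/LEF factor that carries beta-catenin to DNA. With EGF, its levels were 7.23, 7.44, 6.58 and 7.06 in Cic+/+ and 6.68, 6.87 and 6.80 in Cic-/- clones. Without EGF they were 6.47, 6.50, 6.66 and 6.33 in Cic+/+ and 6.26, 6.67 and 6.68 in Cic-/- clones. It was higher with EGF in clones 1, 2 and 4 but not in clone 3, and it was higher in all 3 Cic-/- clones by smaller steps. The EGF difference in Cic+/+ cells was 0.59 ± 0.17 without the clone block (limma adjusted p = 0.147). With the block its standard error was 0.15 (limma adjusted p = 0.0367). In Cic-/- cells the EGF difference was 0.25 ± 0.20 without the block. The difference between these EGF effects was -0.34 ± 0.26 and did not pass. Its 14 probesets were all higher with EGF in Cic+/+ cells, by 0.05 to 1.31. Markers of mature glia moved the other way in the same clones: 6 of 9 oligodendrocyte and 3 of 8 astrocyte markers fell with EGF (limma without a block), and the mean of the former was 6.16 to 6.41 with EGF and 7.52 to 8.00 without. Their part in the Tcf7 result was not tested.

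Wif1 encodes a secreted protein that binds Wnt ligands. With EGF, its levels were 4.96, 5.04, 5.41 and 5.02 in Cic+/+ and 5.47, 5.22 and 5.55 in Cic-/- clones. Without EGF they were 4.99, 4.78, 4.77 and 4.96 in Cic+/+ and 4.74, 4.84 and 4.84 in Cic-/- clones. All 3 Cic-/- clones were higher with EGF, with no overlap. The difference was 0.61 ± 0.15, or 1.52-fold, without the clone block (limma adjusted p = 0.140). With the block its standard error was 0.13 (limma adjusted p = 0.0336). In Cic+/+ cells the EGF difference was 0.23 ± 0.13 without the block, and the difference between the effects was 0.38 ± 0.20 and did not pass. Its probesets did not move together: 10 of 12 were higher with EGF in Cic-/- cells, over a range of -1.78 to 0.90, and 8 of 12 lay above the limit of 4.40. Fits without the block gave an EGF difference of 0.14 with the mean of the probesets (limma adjusted p = 0.703). With the brightest probeset it was 0.03 (limma adjusted p = 0.986). In the same comparison, with the clone block, 3 of 8 oligodendrocyte progenitor, 2 of 8 astrocyte and 2 of 9 neuroblast markers fell with EGF. The mean of the first list was 8.85 to 9.24 with EGF and 9.75 or higher without, and the part of these shifts in the Wif1 result was not tested.

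The promoter of Wif1 is printed because, among the promoters searched, it was the one with either octamer looked for, TGAATGAA or TGAATGGA. These are of the kind CIC is known to bind, and no other letters of that kind were searched. The bases before a gene's start came from a table of RefSeq promoters on the mouse assembly GRCm38.p6, in which 33 of the 51 genes were matched, as 40 windows of 250 bases. The promoters of the other 18 genes, Wnt5a and Sostdc1 among them, were not searched here. The letters TGAATGAA, or TTCATTCA on the other strand, were in 1.08% of 32851 such windows of all genes, and in 1 of the 40. The related letters TGAATGGA (TCCATTCA) were in 1.01% of all windows and in 0 of the 40. The Wif1 window lies at chr10:121033754-121034003, on the plus strand, with the octamer in capitals 129 to 122 bases before the start.

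Wif1 promoter: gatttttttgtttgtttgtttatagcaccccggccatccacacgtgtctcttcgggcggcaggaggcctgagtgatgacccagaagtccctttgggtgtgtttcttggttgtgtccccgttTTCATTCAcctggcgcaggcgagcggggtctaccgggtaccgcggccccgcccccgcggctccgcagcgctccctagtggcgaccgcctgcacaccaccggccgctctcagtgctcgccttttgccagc

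A match of letters is no evidence of binding. Between genotypes Wif1 differed by 0.31 ± 0.14 with EGF (limma adjusted p = 0.465) and by -0.07 ± 0.14 without, and passed neither comparison. The TCF/LEF letters CTTTGAT, which read ATCAAAG on the other strand and to which Tcf7 and its relatives are known to bind, were in 3.21% of all windows and, among these genes, in those of Wnt11 and Wnt5b. Neither of these ligands passed a comparison.

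The EGF differences of Wnt5a and Sostdc1 varied between clones. Wnt5a was lower with EGF by 1.11, 0.33 and 0.10 in clones 5, 6 and 7. The mean difference of -0.51 ± 0.31 had a limma adjusted p of 0.656 without the clone block and 0.295 with it. In Cic+/+ cells it was 0.15 ± 0.26. Sostdc1 was higher with EGF in clones 1, 2 and 4 and about level in clone 3. Its mean difference was 0.90 ± 0.41 (limma adjusted p = 0.389 without the block and 0.148 with it). In Cic-/- cells its EGF difference was 0.07 ± 0.47, with clones 5 and 6 lower and clone 7 higher with EGF.

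**Figure D4:**
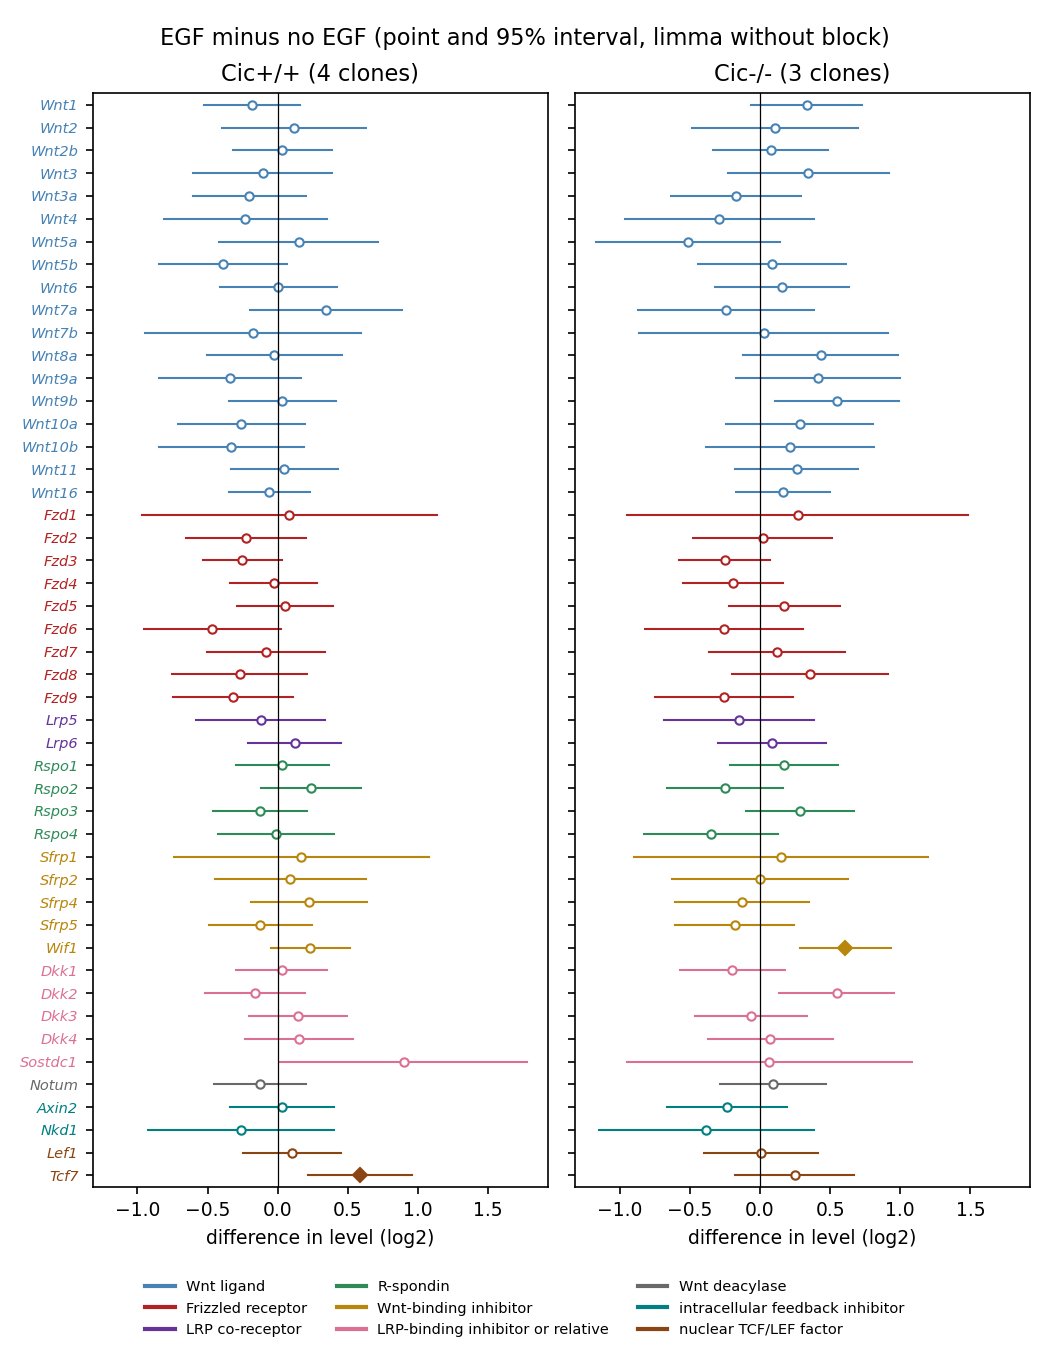
EGF minus no EGF difference in level (x axis, log2) for the 48 genes tested (y axis, coloured by role), in Cic+/+ and Cic-/- cells. Points carry 95% intervals from limma without a block, open points did not pass, and a filled diamond marks a gene that passed only with the clone block: Tcf7 at 0.59 in Cic+/+ and Wif1 at 0.61 in Cic-/- cells.

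No gene of the set passed the test of whether EGF acted differently in the 2 genotypes, without or with the block, beside 0.00576% and 0.0403% of all genes. At an unadjusted limma p under 0.05 there was 1 of 48 without the block, Dkk2, beside 2.86% of all genes. With the block there were 5 of 48, beside 1051 of all 17364 genes. Without the block, the EGF difference of Dkk2 was -0.16 ± 0.17 in Cic+/+ and 0.55 ± 0.19 in Cic-/- cells, apart by 0.71 ± 0.25. For Wnt5a the EGF effects were apart by -0.67 ± 0.40 (95% interval -1.53 to 0.20), and for Sostdc1 by -0.83 ± 0.63 (95% interval -2.17 to 0.51). These intervals are from the fit without the block and do not use the pairing by clone. With the block, standard errors of the EGF effects in Cic+/+ and Cic-/- cells were smaller, 0.20 and 0.24 for Wnt5a and 0.34 and 0.39 for Sostdc1. Neither gene passed in either fit, so a dependence of its genotype difference on the medium was not shown.

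Clones of the same genotype also differed from each other, as seen in genes chosen here for the span of their levels. After Sostdc1 and Wnt5a, whose levels spanned 4.14 and 2.81 over the 14 arrays, came Fzd1 with 2.60, Sfrp1 with 2.22 and Nkd1 with 1.85. Fzd1 had 9.34, 9.20, 8.91 and 9.24 in Cic+/+ and 7.92, 9.20 and 9.86 in Cic-/- clones with EGF. Without EGF it had 9.87, 8.76, 8.53 and 9.20 in Cic+/+ and 7.52, 8.53 and 10.11 in Cic-/- clones. Clone 5 was the lowest and clone 7 the highest of all clones in both media. Clone 5 was thus high in Wnt5a and Sfrp1 and low in Fzd1, whereas clone 7 was high in Fzd1 and had the lowest Wnt5a of the Cic-/- clones.

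**Figure D5:**
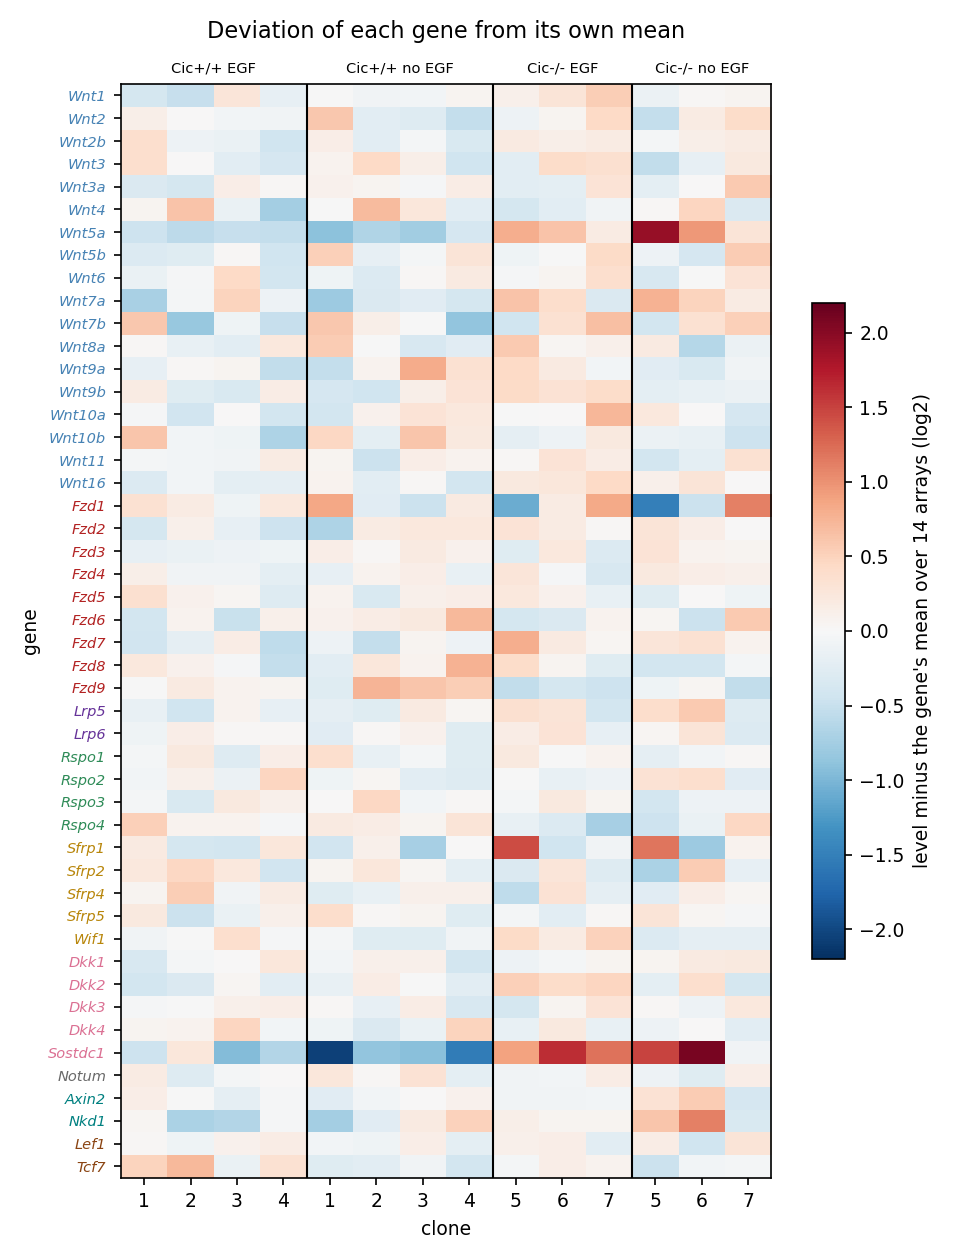
Level of each of the 48 genes (y axis, names coloured by role) on each of 14 arrays (x axis, by clone within group), as the difference from the gene's own mean (colour, log2). Wnt5a and Sostdc1 are mostly below their mean on Cic+/+ arrays and above it on Cic-/- arrays, while Fzd1 and Sfrp1 stand out in single Cic-/- clones.

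The rest of the pathway was read from 7 lists. The receptors and machinery around these genes gave no call between genotypes in either medium for Wnt secretion (0 of 2), R-spondin receptors and their ligases (0 of 5), the destruction complex and Dishevelled (0 of 15), nuclear effectors (0 of 12), receptors and polarity genes of signalling without beta-catenin (0 of 17) and canonical targets (0 of 16 tested). Of all genes tested, 0.317% passed with EGF and 0.553% without, so counts of 0 do not set such short lists apart. Single differences ran from -0.22 to 1.36 in the polarity list with EGF and from -1.45 to 0.34 among canonical targets without it. Ror2 and Ryk, the receptors of Wnt5a named above, lay in that polarity list and did not pass. Among 12 other extracellular modulators tested, 1 fell without EGF and 0 passed with it. This was Cthrc1, a secreted protein that favours Wnt signalling through Ror2. Its levels without EGF were 5.82 to 6.56 in Cic+/+ and 4.56 to 4.87 in Cic-/- clones, a difference of -1.40 ± 0.23 (limma adjusted p = 0.0102).

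Some genes of these lists also passed for EGF. Of 12 nuclear effectors, 2 fell with EGF in Cic+/+ cells without a block, beside 0.898% of all genes that passed in either direction. Tcf7l1, a TCF factor that mostly represses its targets, had levels of 7.36 to 7.92 with EGF and 8.58 to 8.97 without in those clones, a difference of -1.09 ± 0.19 (limma adjusted p = 0.017). Pygo1, a coactivator of beta-catenin, differed by -0.68 ± 0.14 (limma adjusted p = 0.0317). With the clone block, under which 5.17% of all genes passed, 3 of the 12 fell, Tcf7l2 (-0.58, limma adjusted p = 0.0212) being the third, while Tcf7 rose.

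With that block, 2 of 12 extracellular modulators also fell with EGF in Cic+/+ cells. These were Lrp4, an Lrp family receptor (-0.60, limma adjusted p = 0.0123), and Gpc3, a glypican (-0.95, limma adjusted p = 0.0465). In the polarity list 1 of 17 fell, Prickle1 (-0.53, limma adjusted p = 0.0288), a share close to that of all genes. Among canonical targets 1 of 16 rose and 1 fell: Ccnd1, a cyclin that many growth signals raise, by 1.10 (limma adjusted p = 0.0461), and Bmp4 by -1.58 (limma adjusted p = 0.0179). In Cic-/- cells under the block, 1 of 12 nuclear effectors and 1 of 12 extracellular modulators fell with EGF, and no gene of the other lists passed. These were Pygo1 (-0.53, limma adjusted p = 0.0469) and Lrp4 (-0.79, limma adjusted p = 0.0103). Over the 7 lists together, that share was close to the 2.08% of all genes that passed. Without the block none passed.

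The arrays could have missed moderate changes. The standard error of a genotype difference was 0.14 to 0.53 over the 48 genes, with a median of 0.21. The 95% interval lay between -1 and 1 for 38 of 48 genes between genotypes with EGF, for 45 for EGF in Cic+/+ cells and for 43 for EGF in Cic-/- cells, and for 30 for the difference between EGF effects.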

How the data were processed

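The deposited log2 values, of 269751 probesets, are ones that the authors made with RMA, per the submitters' processing notes. For the RMA version, the annotation's build and any scan batch, the sources used here give nothing. Of the probesets, 233753 carry 1 gene symbol, 5106 several and 30892 none. Only the first kind was used. Of 23152 symbols, 20875 were in the RefSeq table of GRCm38.p6, 2247 matched through a synonym and 30 were kept as given. Each gene took the median over its probesets, and the 51 genes have 3 to 22 of them. The lowest 25% of genes by mean level, 5788 genes, were left out. Array medians over all probesets were 6.49 to 6.54.

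All 14 arrays were fitted with 4 group means in limma 3.58.1 (R 4.3.3, the package data.table at version 1.17.8). The spread rested on 10 residual plus 4.06 prior degrees of freedom. Benjamini-Hochberg adjustment ran over 17364 genes, with the threshold for passing at 0.05. Rose and fell are used of genes that passed. The number of arrays limits the precision. Figures were drawn with Python 3.11.15, pandas 2.3.3 and matplotlib 3.10.9. The procedure was tested on simulated data.

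Clone numbers pair the arrays of an animal, since the design text gives 1 culture per animal. The 2 arrays of a clone deviated together from their group means, with correlations of 0.474, 0.323, 0.459 and 0.337 in Cic+/+ and 0.584, 0.156 and 0.616 in Cic-/- clones. For clone 6 another clone correlated as highly (0.163). The fit with the clone as a random block had a consensus correlation of 0.348.

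The genes, the 7 pathway lists and the 11 marker lists were chosen with earlier results of these data known. Values on every array are given for genes that passed any comparison without or with the block, for Axin2, Lef1, Tcf7, Nkd1, Notum, Lrp5 and Lrp6, and for the 2 genes of highest mean level in each class of ligands, Frizzleds, Wnt-binding inhibitors, Lrp-binding inhibitors and R-spondins. In the pathway lists, genes that passed are named. Wnt7a, Wnt9b, Wnt16, Dkk2, Fzd1 and Fzd7 were chosen after their values were seen. Alternatives covered the probeset summary, the dim filter, array scaling, the prior, the block, the arrays fitted and each clone left out.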

Additional observations from a re-analysis of the deposited data

Results flagged for a closer look

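In groups of 4 arrays, 1 array stood far from the other 3 for 6 of 102 gene and group pairs examined by Dixon's criterion, which flags about 1 in 20 by chance. Groups of 3 were not examined. Fzd2 was 6.63 in clone 1 of the Cic+/+ arrays without EGF, where the nearest other clone was 7.49. Fzd5 was 6.04 in clone 2 of that group, next to 6.45. Rspo3 was 4.94 in clone 2 of that group, next to 4.51. Wnt11 was 4.86 in clone 2 of that group, next to 5.41, and 5.53 in clone 4 of the Cic+/+ arrays with EGF, next to 5.30. Wif1 was 5.41 in clone 3 of the Cic+/+ arrays with EGF, next to 5.04.

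Wnt7a was higher with EGF in all 4 Cic+/+ clones and lower with EGF in all 3 Cic-/- clones. In the fit without the clone block, the EGF effects were 0.35 ± 0.25 and -0.24 ± 0.29, apart by -0.59 ± 0.39 (limma interaction, 95% interval -1.42 to 0.24). With the block the standard errors of these effects were 0.19 and 0.22, and the interaction passed in neither fit.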

How the results depend on the processing

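Counts of passing genes are given for the 48 genes tested, and no difference of a gene that passed under any setting changed direction under the alternatives run. Between genotypes with EGF the count was 0 and became 1, Wnt5a, with the brightest probeset. Leaving out each clone gave 0 to 1, with 1 only without clone 7. Without EGF it was 2 and became 0 when only the 7 arrays compared were fitted, which leaves fewer arrays to estimate the spread. Leaving out each clone gave 0 to 2. Clone 6 left none, clones 2 and 3 left Sostdc1 alone, clones 4 and 5 left Wnt5a alone, clone 1 left Wnt5a with Fzd9, and clone 7 kept both genes. Over all 16 alternatives the difference without EGF was 1.29 to 2.11 for Wnt5a (limma adjusted p 0.00057 to 0.131) and 2.05 to 3.26 for Sostdc1 (0.00267 to 0.125).

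For EGF the counts were 0 in Cic+/+ and in Cic-/- cells. Each became 1 with the clone as replicate block, which pairs the arrays of an animal. The other settings were fitted without the block, so they did not test the calls made with it. Among them, leaving out each clone gave 0 to 0 in both genotypes. Tcf7 in Cic+/+ cells ranged from 0.25 to 0.81 (limma adjusted p 0.0367 to 0.662), and Wif1 in Cic-/- cells from 0.03 to 0.72 (0.0336 to 0.986). With the dimmest 50% of genes left out, Wif1 was not tested. For the difference between EGF effects the count was 0 under all 15 alternatives. The block changed no other call of the 48 genes, and centring or quantile normalization of the arrays moved the median of all genes by less than 0.1.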
